A study of Solanum lycopersicum with 32 samples.

Results

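Acetylation of histone H3 at lysine 9 (H3K9ac) was set against acetylation at lysine 18 of the same histone (H3K18ac) in leaves of unheated tomato plants. The series held 32 samples of wild-type *Solanum lycopersicum* cv. M82, assayed by chromatin immunoprecipitation followed by sequencing (ChIP-seq), of which 30 had a peak list. The plants had been kept at 24 °C with 16 h of light for 4 weeks and were then put at 45 °C for 0, 1 or 6 h. The 4 lists compared here are both libraries of H3K9ac and both libraries of H3K18ac at 0 h, chosen by their labels alone, and they hold 339332 of the 2268802 peaks with q of at most 0.05 in the series. Material for each library came from pooled plants, and a whole leaf mixes many cell types, so that a region marked in all cells and a region marked in some of them cannot be told apart.

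Acetyl groups on the tail of histone H3 remove the positive charge of a lysine and are bound by proteins with a bromodomain. In animals, H3K9ac is mainly written by enzymes of the GCN5 family and H3K18ac by enzymes of the CBP family, which also write H3K27ac. In plants such as *Arabidopsis*, H3K9ac is known as a mark of the start of active genes, where trimethylation of lysine 4 (H3K4me3) and RNA polymerase II (RNAPII) are also found. No gene annotation of the M82 assembly was used here, so positions are given relative to the peaks of these targets and along the chromosomes, and no gene is named.

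H3K18ac occupied almost double the sequence of H3K9ac. The H3K9ac lists held 71390 and 65467 peaks, against 104242 and 98233 in the H3K18ac lists, and the difference of the means was -0.57 on the log2 scale. H3K9ac peaks covered 73.3 and 68.3 Mb, against 137 and 137 Mb under H3K18ac peaks, a difference of -0.95 on the log2 scale. Depth was close in the 4 libraries. The lowest background, given in fragments over a base, was 7.40 and 7.38 for H3K9ac, against 7.54 and 7.04 for H3K18ac. With fragments scaled to the shallowest library, the 2 differences were -0.52 and -0.94.

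Each mark had 2 libraries that the submitters describe as independent biological replicates. At summits matched within 30 bp with at least 60 fragments together, the number of fragments differed by a mean chi-square of 0.591 between the H3K9ac libraries and 0.618 between the H3K18ac libraries, both under the value of 1 for Poisson counts at fixed positions. Counts taken at a maximum scatter less than that, so the level with no further spread is not known exactly here. Libraries of different times of one mark gave 4.69 to 10.9 for H3K9ac and 1.98 to 5.49 for H3K18ac. The 4 pairs with one library of each mark gave 4.91 to 5.57. The 2 libraries of a mark showed no difference beyond the sampling noise on this measure, and they were counted as 1 sample, with both values printed and no SD. Exact two-sided permutation tests took the 4 libraries as labelled. The smallest p that such an exact test can give with 2 libraries per mark is 0.333, and this was its value in all 7 contrasts between the marks. The contrasts are therefore reported as differences between pairs of libraries that do not overlap in value.

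H3K9ac peaks were shorter. Their median width was 661 and 691 bp, against 797 and 847 bp for H3K18ac. The gap was wider among long peaks, with 11.2% and 11.4% of H3K9ac peaks but 20.4% and 21.7% of H3K18ac peaks over 2000 bp. Such long peaks held 39.6% and 39.2% of the bp of H3K9ac, against 55.6% and 57.2% of the bp of H3K18ac. The longest peak of a list was of similar size in both marks, at 25631 and 26622 bp for H3K9ac against 26655 and 26829 bp for H3K18ac. The size of the difference depends on how many peaks are called, since the top 65467 peaks of each list had median widths of 737 and 691 bp for H3K9ac and 1354 and 1357 bp for H3K18ac. Joining peaks no more than 200 bp apart gave 849 and 856 bp for H3K9ac against 1234 and 1242 bp for H3K18ac. The summit lay near the middle of a peak in all 4 lists, at a median of 49.6% to 49.7% of the width.

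**Figure D1:**
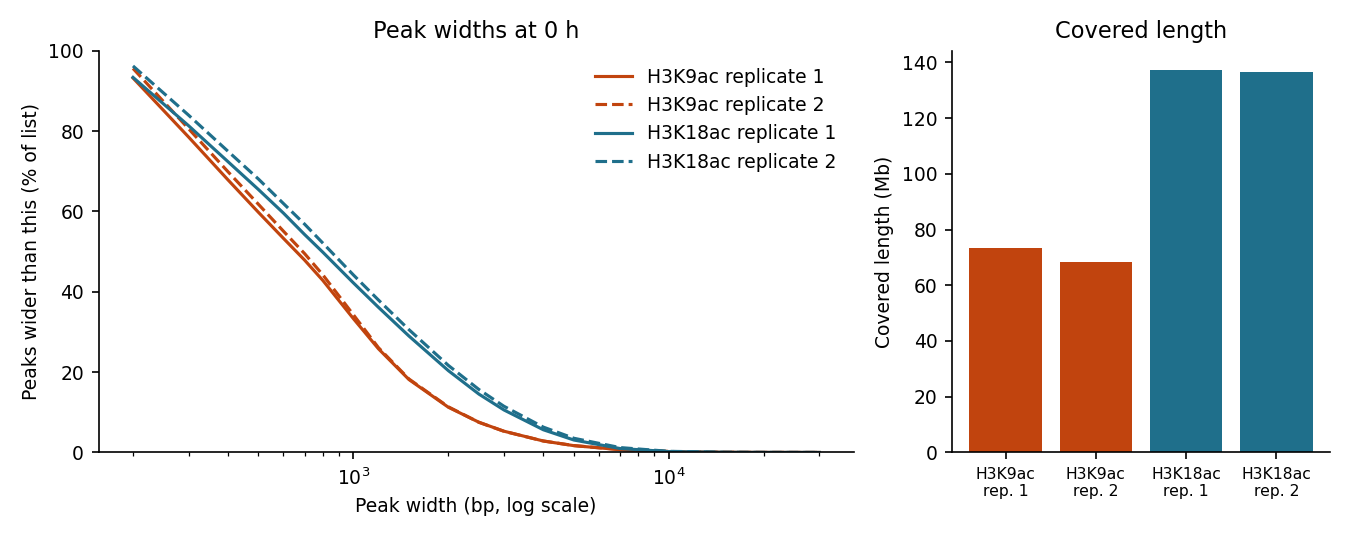
Left, share of peaks (y axis, %) wider than the width on the x axis (bp, log scale) in the H3K9ac (orange) and H3K18ac (blue) libraries, with replicate 1 as a solid and replicate 2 as a dashed line. Right, length covered by merged peaks (Mb) per library: 73.3 and 68.3 Mb for H3K9ac, against 137 and 137 Mb for H3K18ac.

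The range of peak heights was wider for H3K9ac, with a lower median and a higher top. The fold enrichment of a peak is its fragment pileup over the local background, as the authors' peak caller wrote it. The highest 10% of the H3K9ac peaks began at a fold of 13.2 and 14.2 and reached 33.5 and 33.8, against a start at 5.97 and 5.96 and a maximum of 19 and 18.9 for H3K18ac. The median peak had a fold of 2.85 and 2.93 in H3K9ac and 3.28 and 3.29 in H3K18ac. H3K9ac therefore combined a large set of weak peaks with a minority of very high ones, while H3K18ac enrichment was spread over a narrower range.

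Nearly all H3K9ac peaks met an H3K18ac peak, but not the reverse. At an overlap of at least 1 bp, 93.6% and 94.1% of the peaks in the H3K9ac lists were overlapped by an H3K18ac peak (mean over both lists of the other mark). Among H3K18ac peaks, 56.6% and 57.7% were overlapped by an H3K9ac peak. In the full lists, an H3K9ac peak met H3K18ac, which covered more sequence, more often than it met its own replicate. The overlap between the 2 H3K9ac lists was 84.2% on average, against 91.7% between the 2 H3K18ac lists. In bp, 85.0% of the H3K9ac sequence lay under H3K18ac peaks and 43.9% of the H3K18ac sequence lay under H3K9ac peaks. The asymmetry was smaller between lists of equal length. With 65467 peaks taken from each library, the overlapped share was 84.1% and 84.3% for H3K9ac, against 69.4% and 69.0% for H3K18ac, and the difference in percentage points was 15.02 in place of 36.7. The H3K9ac share was then close to the 84.2% between the full H3K9ac lists, which was 79.2% for replicate 1 and 89.1% for replicate 2.

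Enrichment separated the overlapped from the solitary peaks in H3K18ac more than in H3K9ac. In the 10% of each list with the lowest fold, 91.3% and 92.5% of H3K9ac peaks were overlapped by at least one H3K18ac list, against 32.7% and 33.8% of H3K18ac peaks overlapped by H3K9ac. In the 10% with the highest fold, all H3K9ac peaks were overlapped in both libraries, against 96.2% and 96.5% of H3K18ac peaks. The share grew at each step for H3K18ac in both libraries, and the width of its peaks grew with it, with medians of 260 and 278 bp in the lowest 10% and 2166 and 2144 bp in the highest. Overlap by chance is easier for a wide peak, and the part of width in this rise was not tested.

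**Figure D2:**
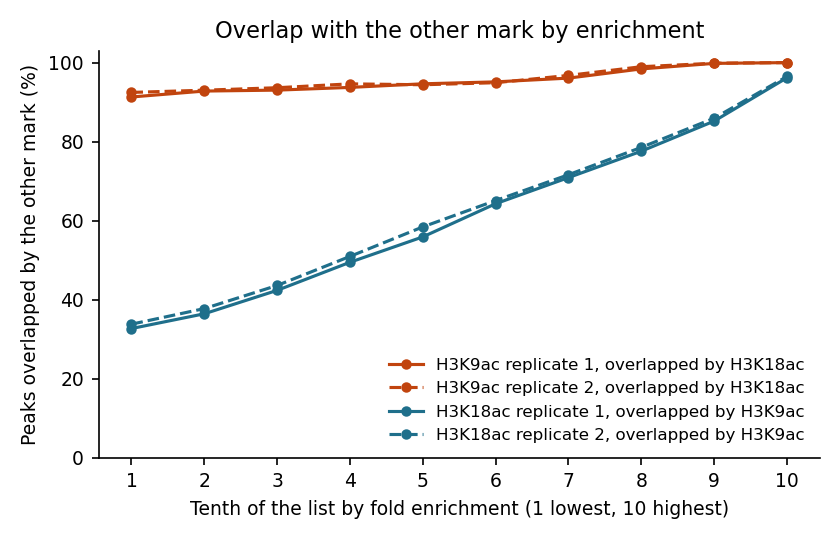
Share of peaks overlapped by at least one list of the other mark (y axis, %) in 10 equal parts of each list ordered by fold enrichment (x axis). H3K9ac peaks (orange) stay above 91% throughout, whereas H3K18ac peaks (blue) run between 32.7% in the lowest and 96.5% in the highest of the parts.

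Nesting was mostly of H3K9ac within H3K18ac. A whole H3K9ac peak lay inside one H3K18ac peak in 47.6% and 46.6% of cases, and a whole H3K18ac peak lay inside one H3K9ac peak in 21.7% and 21.8%. Between the 2 libraries of a mark, the nested share was 22.6% for H3K9ac and 25.6% for H3K18ac on average. Nesting of H3K18ac in H3K9ac was thus no more frequent than between libraries of a mark. The nested H3K9ac peaks had median widths of 419 to 437 bp and their H3K18ac hosts 2927 to 3092 bp. Nested H3K18ac peaks were longer, at 630 to 660 bp, and lay in H3K9ac hosts of 1479 to 1531 bp. On either side of a nested H3K9ac peak, H3K18ac extended unevenly, by a median of 418 to 450 bp on the shorter and 1694 to 1807 bp on the longer side. Left and right along the assembly were even, with medians of 905 to 967 bp. Between 32.8% and 35.4% of the H3K18ac hosts held 2 or more H3K9ac peaks, and the most held by a host was 18. The difference in nested peaks between the marks was 25.4 percentage points and remained positive with equal numbers of peaks (19.7 points). H3K18ac peaks were still the wider ones there, and the part of width in nesting was not tested.

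The longer overhang of H3K18ac could be set against transcription where a single nested H3K9ac peak overlapped H3K4me3 and the strongest RNAPII summit within 2000 bp was at least 200 bp away from the H3K9ac summit. In the 1519 and 1820 such cases (replicate 1 and 2 lists of all targets), H3K18ac reached a median of 245 and 286 bp past the H3K9ac peak on the side of the RNAPII summit, against 358 and 422 bp on the far side. The far side was the longer one in 58.8% and 57.9% of cases. This is a description of both sets of lists, without a test.

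Over the whole genome the lists of a mark were more alike than the lists of different marks. The bp Jaccard index, the shared over the combined length of 2 lists, was 0.760 between the H3K9ac libraries, 0.846 between the H3K18ac libraries and 0.394 to 0.421 between the marks. The difference of 0.395 (same mark minus different marks) was the largest of the 3 ways to pair the 4 libraries, and the smallest p that this exact one-sided test can give is 0.333. Of the 3 other targets at 0 h, RNAPII had the highest index with H3K9ac and H3K27ac the highest with H3K18ac. H3K9ac had mean Jaccard indices of 0.383 with RNAPII, 0.364 with H3K4me3 and 0.341 with H3K27ac. H3K18ac had 0.299 with RNAPII, 0.232 with H3K4me3 and 0.464 with H3K27ac. By this index H3K18ac was thus closer to H3K27ac than to H3K9ac, in all pairs of libraries (0.452 to 0.477 against 0.394 to 0.421). The index also depends on the lengths of both lists. H3K9ac covered a mean of 70.8 Mb against 137 Mb for H3K18ac, and 85.0% of the H3K9ac sequence lay under H3K18ac. The part of list length in this order was not tested.

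Merging the 4 lists gave 83397 regions, which were sorted by the libraries that had a peak in them. In 36309 of them, or 43.5%, all 4 libraries had one, and these shared regions held 69.9% of the merged sequence with a median width of 2147 bp. Both H3K9ac libraries and neither H3K18ac library had a peak in 1591 regions, or 1.91%. Both H3K18ac libraries and neither H3K9ac library had one in 23886 regions, or 28.6%. H3K9ac-specific regions on the 12 chromosomes were short (median 478 bp), and H3K18ac-specific ones were longer (929 bp). The remaining 25.9% were marked in some other combination and had a median width of 311 bp. A part of the specific regions held a peak of the other mark that missed the q threshold, 6.60% of the H3K9ac-specific and 6.90% of the H3K18ac-specific ones, so absence here means absence from a list.

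The number of H3K9ac-specific regions depended on how many peaks were called. With equal numbers of peaks per library there were 5060 H3K9ac-specific and 12220 H3K18ac-specific regions, and the excess of H3K18ac-specific regions was smaller but kept its direction. At equal depth the numbers were 1678 and 23106. With 1 library per mark, which is a looser rule, they were 4088 without replicate 1 and 4286 without replicate 2 for H3K9ac, against 43235 and 43404 for H3K18ac.

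The specific regions were also described by their distance to the other mark. H3K9ac-specific regions had a median distance of 317 bp to the nearest H3K18ac peak, and 67.3% had one within 500 bp. H3K18ac-specific regions had a median distance of 2483 bp to the nearest H3K9ac peak, and 20.2% had one within 500 bp. Over 5000 bp from the other mark lay 2.64% of the H3K9ac-specific and 37.4% of the H3K18ac-specific regions. The backgrounds of these distances differ, because H3K18ac had more peaks and covered more sequence than H3K9ac, and their part in the distances was not tested.

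The classes carried different sets of the other targets, which had no part in defining them. H3K4me3 was present in both of its libraries at 37.6% of the 1515 H3K9ac-specific regions on the chromosomes (exact 95% interval 35.1% to 40.1%, counting error only), at 13.3% of the H3K18ac-specific regions (12.9% to 13.8%) and at 62.6% of the shared regions. RNAPII was present at 77.8% of the H3K9ac-specific regions (75.6% to 79.8%), at 22.4% of the H3K18ac-specific regions (21.9% to 22.9%) and at 88.1% of the shared regions. H3K27ac had the reverse order of the specific classes over all widths, with 29.7% of the H3K9ac-specific regions (27.4% to 32.1%), 52.5% of the H3K18ac-specific regions (51.9% to 53.2%) and 83.1% of the shared regions. Over all merged regions on the chromosomes the shares were 35.3% for H3K4me3, 54.4% for RNAPII and 59.4% for H3K27ac. At an overlap of 1 bp, H3K4me3 at H3K9ac-specific regions was thus close to the share over all regions. H3K27ac was below its share over all regions in both specific classes. The closeness for H3K4me3 did not hold with at least 50% of the region covered in both libraries. H3K4me3 was then at 36.3% of the H3K9ac-specific, 37.2% of the shared and 20.7% of all regions. H3K27ac stayed below its share over all regions (35.4%) in both specific classes, at 25.3% and 30.4%. The other shares given here are at 1 bp. A frequent pattern at H3K9ac-specific regions was RNAPII in both libraries with no H3K27ac peak in either, at 53.1%, against 7.61% of the H3K18ac-specific and 12.3% of all merged regions. H3K27ac in both with no RNAPII peak was found at 6.73% of the H3K9ac-specific, 37.1% of the H3K18ac-specific and 17.9% of all regions. None of the 3 other targets had a peak at 6.01% of the H3K9ac-specific, 26.3% of the H3K18ac-specific and 17.7% of all regions. These patterns were not read within classes of width.

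Width bears on the shares of the single targets, so they were read within classes of width as well. Among regions of 700 to 1200 bp, H3K4me3 was at 58.3% of 295 H3K9ac-specific, 10.7% of 5346 H3K18ac-specific and 67.3% of 6914 shared regions. RNAPII was at 86.8% of the H3K9ac-specific, 18.6% of the H3K18ac-specific and 87.5% of the shared regions of this width. The order for H3K27ac did not hold there, with 53.9% of the H3K9ac-specific, 48.5% of the H3K18ac-specific and 75.4% of the shared regions. It was also turned at 400 to 700 bp (33.4% of the H3K9ac-specific and 28.1% of the H3K18ac-specific regions), and the shares were close at 1200 to 2000 bp (74.1% of 27 and 74.3% of 4889). At 200 to 400 bp H3K27ac was at 10.1% of the H3K9ac-specific and 17.999% of the H3K18ac-specific regions. The lower share of H3K27ac at H3K9ac-specific regions over all widths was therefore not found at matched widths of 400 to 2000 bp. Counted by peaks of single libraries, 27.2% and 30.6% of H3K9ac peaks with no H3K18ac overlap met H3K4me3 in both of its libraries, against 12.7% and 13.02% of H3K18ac peaks with no H3K9ac overlap. This difference of 16.0 percentage points was 32.6 when a 50% cover replaced the 1 bp overlap. The H3K9ac peaks include 85 and 84 on the chloroplast sequence, and without these their shares are 28.0% and 31.5%.

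Enrichment divided the H3K9ac-specific regions further. In the 25% of them with the highest fold (the lower of both libraries at 3.05 to 10.996), 69.4% had H3K4me3 and 62.0% had H3K27ac, against 25.3% and 16.6% in the lowest 25%. RNAPII was at 79.2% of the highest and 71.8% of the lowest 25%. Among H3K18ac-specific regions the highest 25% (fold 3.45 to 7.60) had H3K4me3 at 13.7% and H3K27ac at 79.97%, and the lowest 25% had them at 12.7% and 33.5%. Width went with fold in both classes, with medians of 673 bp in the highest and 389 bp in the lowest 25% of the H3K9ac-specific and 1926 and 473 bp of the H3K18ac-specific regions. The part of width in these shares was not tested.

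**Figure D3:**
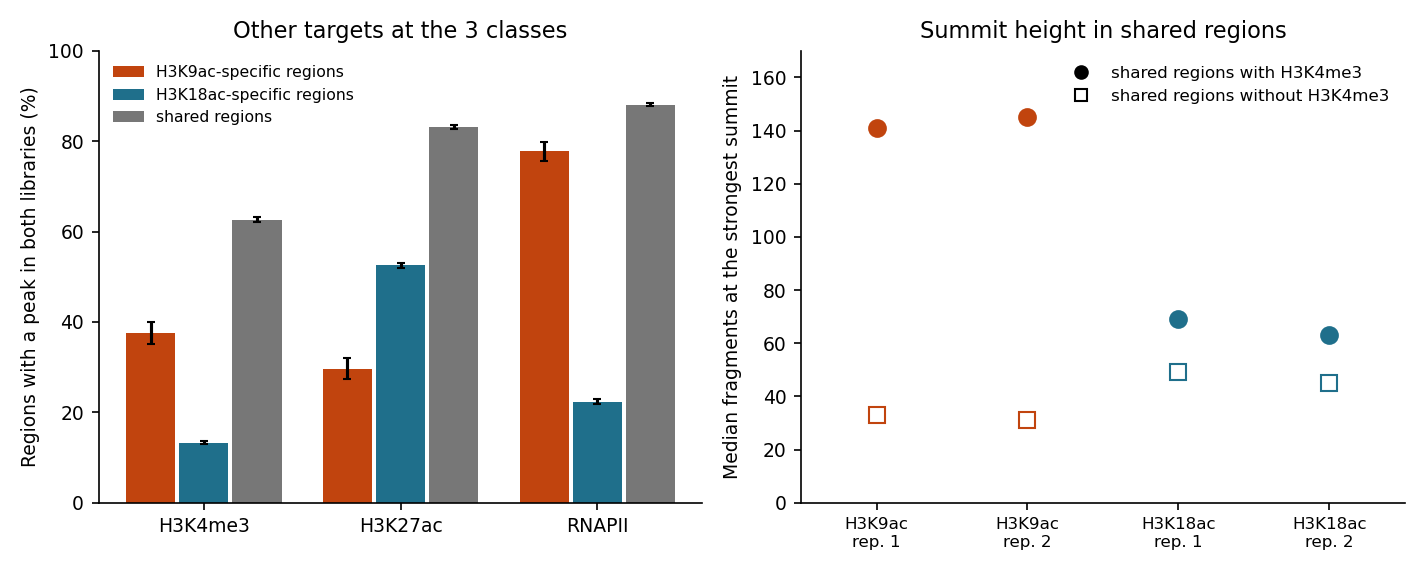
Left, share of regions on the 12 chromosomes (y axis, %) with a peak of H3K4me3, H3K27ac or RNAPII in both libraries, for H3K9ac-specific (orange, 1515), H3K18ac-specific (blue, 23885) and shared (grey, 36309) regions, with exact 95% intervals for counting error. Right, median fragments at the strongest summit of shared regions with (filled) and without (open) H3K4me3, where the H3K9ac libraries differ more between the groups (141 and 145 against 33 and 31) than the H3K18ac libraries (69 and 63 against 49 and 45).

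The 5 H3K9ac-specific regions with the highest fold were all short, between 702 and 775 bp, and all had H3K4me3 and H3K27ac in both libraries. In the 25% of the class with the highest fold, the shares were 69.4% for H3K4me3 and 62.0% for H3K27ac. At chr4:7166123-7166825 the H3K9ac libraries had 142 and 137 fragments over a background of 11.7 and 11.6 (fold 11.3 and 10.996), and H3K4me3 had a fold of 24.6 and 16.9. At chr9:2771654-2772407 they had 126 and 122 fragments (fold 11.3 and 10.9), and no RNAPII peak was listed. At chr11:9792416-9793190 they had 85 fragments each over the lowest background of the list, 7.40 and 7.38, with a fold of 10.2 and 10.3. The other members were chr11:55805904-55806631 with 140 and 141 fragments and chr11:5605269-5605970 with 142 and 154. After 1 h at 45 °C both H3K18ac libraries had a peak in 4 of these 5 regions, the exception being the one on chromosome 9. The share over all H3K9ac-specific regions was 75.4%.

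The 5 strongest H3K18ac-specific regions were wider, between 1488 and 4474 bp, and had lower folds, between 7.17 and 8.43. All 5 had H3K27ac in both libraries, and none had an H3K4me3 peak in either. Over all H3K18ac-specific regions, 52.5% had H3K27ac in both libraries and 81.4% had no H3K4me3 peak in either. In the 25% of them with the highest fold, H3K27ac was at 79.97%. At chr1:41298987-41301734 the H3K18ac libraries had 67 and 64 fragments over a background of 7.95 and 7.41 (fold 7.60 and 7.73). At chr9:67023066-67027539 they had 93 and 68 fragments, and RNAPII had no peak. The region at chr3:56594186-56597184, with 90 and 86 fragments, was the only one of the 5 with RNAPII in both libraries. The others were chr2:28522462-28526489, with 71 and 58 fragments, and chr5:12777112-12778599, with 63 and 58. The H3K18ac peak was listed in both libraries at 1 h and at 6 h in all 5 of them. They were picked for a high H3K18ac fold. Over all H3K18ac-specific regions the share was 62.1% at 1 h and 83.6% at 6 h.

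Shared regions differed in the signal of the 2 marks. Each mark was precipitated with its own antibody, so a ratio of fragments between marks is not a ratio of amounts. Of the 36309 shared regions, the mean H3K9ac cover was shorter than the H3K18ac cover in 60.3% and longer in 39.6%, with a median ratio of 0.862 (H3K9ac over H3K18ac). At the strongest summit of a region, the median number of fragments was 73 and 71 for H3K9ac, against 61 and 56 for H3K18ac. The highest 1% of the regions began at 306 and 322 fragments for H3K9ac and 159 and 151 for H3K18ac. The log2 ratio of fragments (H3K9ac over H3K18ac) had a median of 0.55 and ran between -1.04 at the 10th and 1.53 at the 90th percentile of the regions. Between libraries of one mark its SD over regions was 0.20 for H3K9ac and 0.21 for H3K18ac, well under the spread of the ratio between marks. Summit heights ranked alike within a mark (Spearman's rho across regions 0.982 for H3K9ac and 0.945 for H3K18ac) and less so between marks (0.596 to 0.608). Regions are not independent replicates, and these rho values describe the 4 libraries.

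H3K4me3 went with this ratio. In the 22737 shared regions with H3K4me3 in both libraries, the strongest summit had a median of 141 and 145 H3K9ac fragments, against 69 and 63 H3K18ac fragments. In the 12509 shared regions with no H3K4me3 peak it had 33 and 31 H3K9ac fragments, against 49 and 45 H3K18ac fragments. The median log2 ratio was 1.11 with H3K4me3 and -0.42 without it, so the mark with more fragments differed between these groups. The ratio was 0.77 with RNAPII and -0.63 in the 2916 regions with no RNAPII peak. It was 0.87 with H3K27ac and -0.17 without it. Regions with these targets were also wider than regions without (2322 against 1893 bp for H3K4me3), and the part of width in the ratio was not tested.

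The 5 shared regions whose lowest fold over the 4 libraries was highest, a rank set by H3K18ac in each of them, had H3K4me3, H3K27ac and RNAPII in both libraries. Over all shared regions, 56.5% had all 3 of these targets in both libraries. The 5 were between 4891 and 11623 bp wide, against a median of 2147 bp over all shared regions, and the part of width was not tested. At chr6:42410912-42422534, which is 11623 bp long, H3K9ac had 339 and 359 fragments and H3K18ac 222 and 207 at the strongest summit. At chr6:45889494-45895154 the numbers were 337 and 354 for H3K9ac against 220 and 218 for H3K18ac. At chr7:57018884-57028262 they were 321 and 337 for H3K9ac against 194 and 197 for H3K18ac. The other 2 members, on chromosomes 11 and 9, had 312 to 359 H3K9ac fragments against 160 to 182 H3K18ac fragments. H3K9ac had more fragments than H3K18ac in all 5, which restates that H3K18ac had the lowest fold in each and is no separate result.

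The 3 widest shared regions showed that sharing need not mean equal extent. In chr9:64454739-64484984 (30246 bp), H3K9ac covered 9747 and 8924 bp, against 29885 and 29352 bp for H3K18ac. In chr6:42998720-43026687 (27968 bp), H3K9ac covered 1652 and 330 bp with a fold of 2.12 and 1.88, against 27678 and 27158 bp with a fold of 5.37 and 5.65 for H3K18ac. In chr3:66230753-66259587 (28835 bp) both were long, with 23144 and 23432 bp of H3K9ac and 26750 and 26924 bp of H3K18ac.

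The summits of both marks mostly lay close together. Among peaks that overlapped one to one, which were 26886 to 28107 pairs between marks, the median distance between an H3K9ac and an H3K18ac summit was 76 to 86 bp. Libraries of the same mark had medians of 49 bp for H3K9ac and 62 bp for H3K18ac. The excess was 25.5 bp over all pairs, and it was small both at narrow peaks and at peaks of like extent. Where both peaks were at most 1000 bp wide, the median was 55 to 60 bp between marks, 61 bp within H3K9ac and 51 bp within H3K18ac, and the excess was 2 bp. Where each peak covered at least 50% of the other, the medians were 49 to 57 bp, 43 bp and 59 bp in the same order. The excess was then 2.75 bp. Where the wider peak exceeded 4000 bp, the medians were 676 to 722 bp between marks, 34 bp within H3K9ac and 123 bp within H3K18ac. A distance over 500 bp was found in 14.1% to 14.4% of the pairs between marks, 2.77% within H3K9ac and 7.55% within H3K18ac. The excess of 25.5 bp was the largest of the 3 pairings (exact one-sided test, smallest possible p 0.333).

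Around H3K9ac summits, H3K18ac peaks covered 90.2% to 91.6% of the summits themselves and 54.1% to 54.9% of the positions 3000 bp away. Around H3K18ac summits, H3K9ac covered 45.7% to 49.2% of the summits and 25.8% to 28.0% of the positions 3000 bp away. The profiles were nearly symmetric, and the median signed offset was 0 bp in all pairs of libraries.

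**Figure D4:**
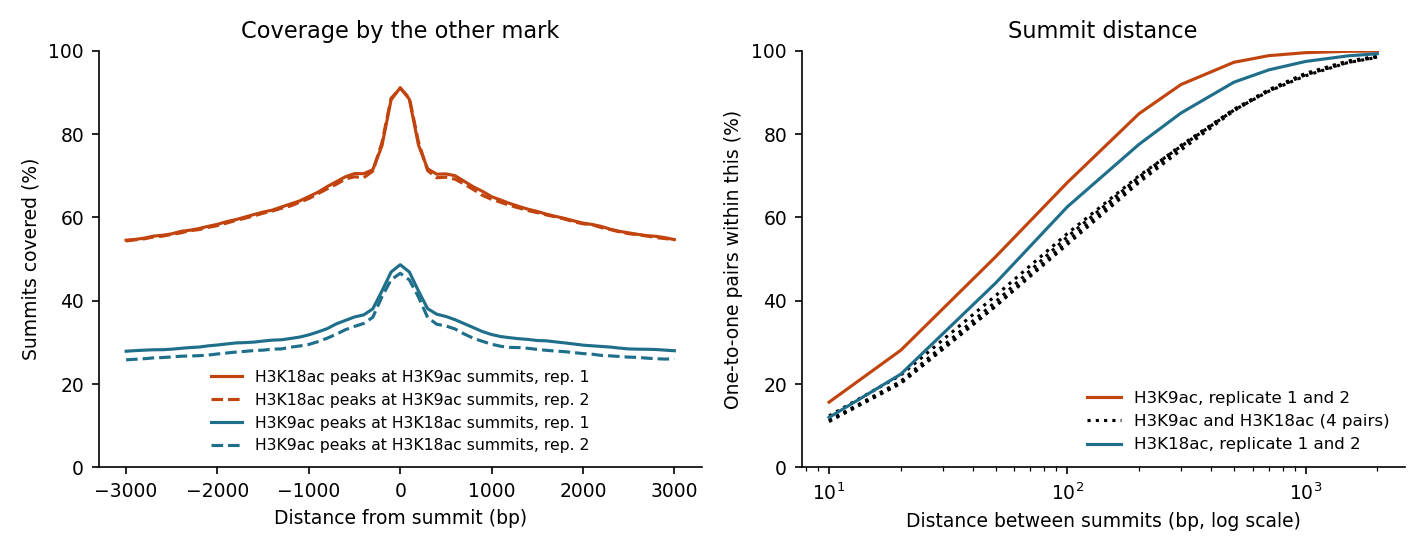
Left, share of summits covered by peaks of the other mark (y axis, %) against the distance from the summit (x axis, bp), with H3K18ac at H3K9ac summits in orange and H3K9ac at H3K18ac summits in blue. Right, share of one-to-one pairs (y axis, %) whose summits lie within the distance on the x axis (bp, log scale): beyond 100 bp the 4 pairs between marks (dotted) run below both pairs of the same mark (solid), and 14.1% to 14.4% of them lie over 500 bp apart.

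In 7558 places all 4 libraries matched one to one and each mark placed its summit within 100 bp in both libraries. The median distance between the mean summits of the marks was there 24.5 bp, and 243 places, or 3.22%, had over 500 bp. With a fold of at least 5 in all 4 libraries, 2204 places remained, of which 43 had over 500 bp. The largest distance was 3545 bp at chr5:9907608-9912240, with H3K9ac summits at 9907855 and 9907862 and H3K18ac summits at 9911451 and 9911356. H3K4me3 had its summits there at 9907930 and 9907882 and RNAPII at 9907643 and 9907650, next to H3K9ac. At chr2:52112034-52115574 the marks were 2638.5 bp apart, with H3K9ac at 52112514 and 52112504 and H3K18ac at 52115114 and 52115181, while H3K4me3 lay at 52113095 and 52113037. At chr10:6100978-6104770 they were 2569 bp apart, with H3K9ac at 6101295 and 6101313 and H3K18ac at 6103912 and 6103834. In all 3 places the H3K4me3 and RNAPII summits were nearer to the H3K9ac summits. The position of H3K27ac varied. Its summits were nearer to H3K9ac on chromosome 2 (52113490 and 52113457) and to H3K18ac on chromosome 10 (6103844 and 6103626). On chromosome 5 replicate 1 lay next to H3K9ac (9907941) and replicate 2 next to H3K18ac (9911395). These 3 places are the extremes of the 43, and the share over all 43 was not counted.

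The order of the summits was also read in shared regions with H3K4me3. Where the strongest summits of H3K4me3, H3K9ac and H3K18ac fell on 3 different positions (22089 and 22687 regions), H3K9ac was the middle one in 40.8% and 41.5%, H3K18ac in 30.001% and 32.7% and H3K4me3 in 29.2% and 25.8%. The median distance to the H3K4me3 summit was 68 and 73 bp for H3K9ac and 97 and 97 bp for H3K18ac. In regions whose RNAPII summit was 200 to 2000 bp away from the H3K4me3 summit, H3K9ac lay on the RNAPII side of H3K4me3 in 66.4% and 67.5% and H3K18ac in 62.3% and 63.3%. The median offset to that side was 41 and 48 bp for H3K9ac and 37 and 45 bp for H3K18ac. These offsets are below the median summit distances between libraries of one mark in one-to-one pairs, 49 bp for H3K9ac and 62 bp for H3K18ac. The sides of RNAPII and of both marks were read from the same H3K4me3 summit, and the part of error in its position was not tested.

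Both marks were concentrated towards the chromosome ends, and H3K18ac less so. Chromosome length was taken as the end of the last peak in any list. The central 50% of each chromosome held 11.8% and 11.8% of the H3K9ac sequence, against 17.5% and 17.5% of the H3K18ac sequence, a difference of -5.73 percentage points. In steps of 5% of the length, the ratio of covered lengths (H3K9ac over H3K18ac) was 0.562 in the first and 0.638 in the last step, and it was lowest, at 0.201, between 25% and 30% of the length. H3K9ac covered 0.273 and 0.251 Mb in that step on all 12 chromosomes together, against 1.29 and 1.31 Mb under H3K18ac.

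Much of the H3K18ac in the middle of the chromosomes was therefore without H3K9ac. H3K18ac-specific regions made up 72.7% of the 3 classes between 25% and 30% of the length and 24.1% in the last 5%. Of the H3K18ac-specific regions, 30.6% lay in the central 50%, against 13.7% of the H3K9ac-specific and 14.9% of the shared regions. Their median distance to a chromosome end was 9.85 Mb, against 5.003 Mb for H3K9ac-specific and 5.73 Mb for shared regions. H3K18ac-specific regions of the central 50% had RNAPII at 12.6% and H3K27ac at 54.9%, and those of the outer 50% had RNAPII at 26.7% and H3K27ac at 51.5%. H3K4me3 was at 12.7% of them in the central and at 13.6% in the outer 50%.

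The chromosomes differed in the same direction. H3K9ac covered less than H3K18ac on all 12, with ratios between 0.446 on chromosome 12 and 0.591 on chromosome 2. H3K18ac-specific regions made up between 31.1% of the 3 classes on chromosome 2 and 47.2% on chromosome 12, and H3K9ac-specific regions between 2.10% on chromosome 12 and 2.83% on chromosome 2. Each library placed the chromosomes alike, since on chromosome 12 H3K9ac covered 4.10 and 3.83 Mb against 8.90 and 8.87 Mb for H3K18ac, and on chromosome 2 8.53 and 8.06 Mb against 14 and 14.0 Mb.

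**Figure D5:**
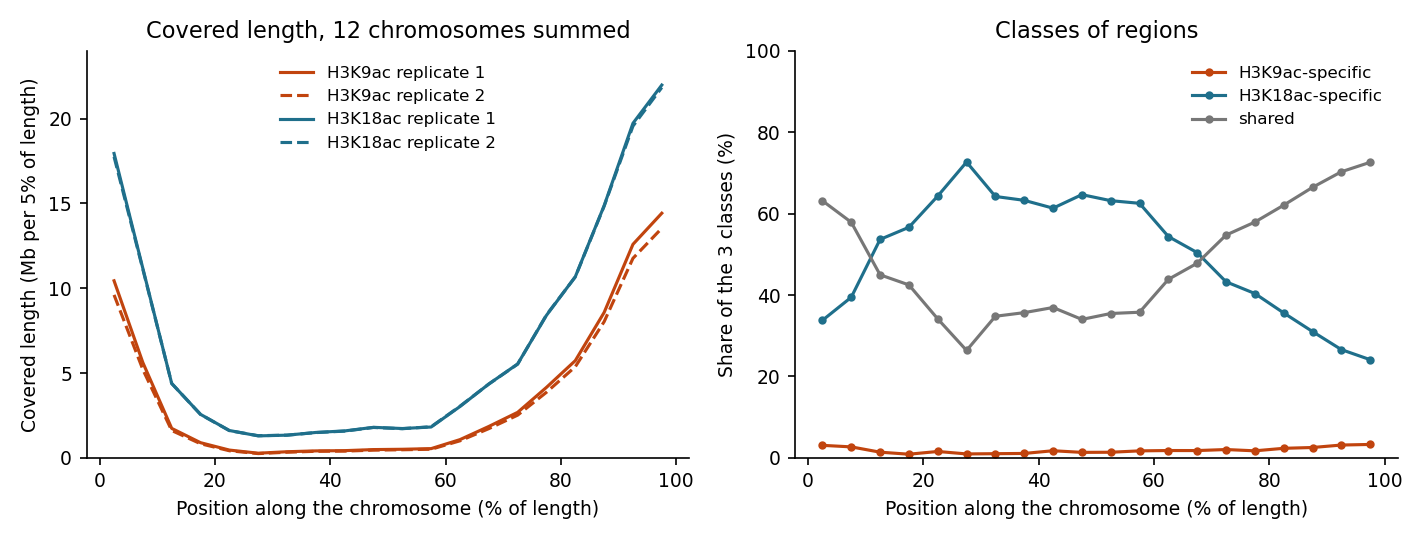
Left, length covered by peaks (y axis, Mb per 5% of chromosome length, 12 chromosomes summed) along the chromosome (x axis, % of length) in the H3K9ac (orange) and H3K18ac (blue) libraries. Right, share of H3K9ac-specific (orange), H3K18ac-specific (blue) and shared (grey) regions among the 3 classes (y axis, %): H3K18ac-specific regions reach 72.7% between 25% and 30% of the length and make up 24.1% in the last 5%.

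At 1 h and 6 h of heat the contrasts between the marks kept their sign but not their size, and some are given as values. The overlapped share was 93.6% and 94.1% of H3K9ac peaks against 56.6% and 57.7% of H3K18ac peaks at 0 h, 98.1% and 98.0% against 41.5% and 41.3% at 1 h, and 91.4% and 91.0% against 47.8% and 47.2% at 6 h. Nested peaks were 60.4% and 57.0% for H3K9ac against 7.60% and 8.33% for H3K18ac at 1 h, and 43.0% and 40.5% against 16.1% and 16.2% at 6 h, where the difference of 25.6 points was close to the 25.4 at 0 h. The difference in the central 50% of the chromosomes was -5.73 points at 0 h, -0.73 at 1 h and -4.28 at 6 h. The only input was of unheated leaves, and the background depth at these times was 4.47 to 6.49 fragments for H3K9ac against 8.33 and 8.61 for the 2 H3K18ac libraries where it could be solved, so the times were not compared by a test.

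The classes of unheated leaves were followed at 1 h and 6 h. Of the 1515 H3K9ac-specific regions, 2.64% were H3K9ac-specific at 1 h, when the class made up 0.277% of all regions, and 20% at 6 h, when it made up 1.88%. Both H3K18ac libraries had a peak in 75.4% of them at 1 h and in 19.6% at 6 h. Of the H3K18ac-specific regions, 54.8% were H3K18ac-specific at 1 h and 69.1% at 6 h, when this class made up 40.8% and 33.8% of all regions, and both H3K9ac libraries had a peak in 4.43% and 5.69%. Of the shared regions, 73.8% had both marks in both libraries at 1 h and 78.7% at 6 h, when shared regions were 34.7% of all at both times. The size and width of a class differ between the times, and persistence was not compared between the classes by a test.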

How the data were processed

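The authors trimmed reads with Trimmomatic 0.38, mapped them with Bowtie2 2.3.5 to the M82 assembly version 1, processed alignments with SAMtools 1.9 and called peaks with MACS2 2.2.7.1 in each library against a single 0 h input. The deposited lists are narrow peaks with a p-value and a q-value as −log10, a fold, which is the ratio of pileup to background, a position and a summit. The sources differ on broad or narrow calling and on the cutoff, and the lists hold narrow peaks with q-values above 0.05. Peaks with q of at most 0.05 were used. Whole numbers of fragments were solved from the deposited fold and p-value (tolerance 0.001), which failed for 1 of the peaks in the 4 lists.

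Overlap meant at least 1 bp. Tests were exact permutations over the 4 libraries. Named regions were, on chromosomes 1 to 12, the 5 specific regions of each mark with the highest lower fold, the 5 shared regions with the highest lowest fold, the 3 widest shared regions, and the 3 largest summit distances (fold of at least 5, same-mark summits within 100 bp). The members and lists were chosen with earlier results of these data known. Intervals were handled in Python 3.11.15 (pandas 2.3.3 with numpy 2.4.6), p-values came from scipy 1.17.1, plots from matplotlib 3.10.9, and the interval functions were tested on simulated data.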

Additional observations from a re-analysis of the deposited data

Results flagged for a closer look

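H3K9ac peaks on the chloroplast sequence lay outside the comparisons by chromosome. There were 85 and 84 with q of at most 0.05 in the H3K9ac libraries at 0 h, against 0 and 0 in the H3K18ac libraries, and also 0 for H3K4me3 and H3K27ac at 0 h. RNAPII had 49 and 76. The H3K9ac peaks covered 45.2 and 54.9 kb and were weak, with a fold of 1.21 to 1.48 in replicate 1 and 1.22 to 1.63 in replicate 2, and 50.6% and 47.6% of them overlapped RNAPII peaks of both libraries. Chloroplast DNA carries no histones, as textbook background. They make up 76 of the 1591 H3K9ac-specific regions, and the shares given by class of region leave them out. The shares of single-library peaks with H3K4me3 (27.2% and 30.6% of the H3K9ac peaks without H3K18ac) include them, and on the 12 chromosomes these shares are 28.0% and 31.5%. The source of this signal was not tested.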

How the results depend on the processing

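Of 123 values under alternatives for 14 results, 113 kept their direction or, for counts, stayed within 1.5 times, 8 counts of regions moved and 2 values changed sign. The 113 include the values with a replicate block, plain or crossed. In this balanced design those average the same libraries and could not change direction. H3K9ac-specific regions numbered 5060 with equal numbers of peaks and 3493 with 50% of the region covered, against 1591. H3K18ac-specific regions numbered 12220 with equal numbers of peaks, against 23886. Shared regions numbered 20302 with 50% of the region covered, against 36309. Without one replicate there were 4088 to 4286 H3K9ac-specific and 43235 to 43404 H3K18ac-specific regions, where 1 library per mark and not 2 defined the class. Equal numbers of peaks leave no difference in peak number to measure. The differences in RNAPII (55.4 points) and H3K27ac (-22.8 points) between H3K9ac-specific and H3K18ac-specific regions were added after seeing the data, and at 50% cover they were 28.2 and -5.04 points. Within 4 classes of width the difference in RNAPII stayed between 54.5 and 68.1 points, whereas that in H3K27ac changed sign, to 5.29 points at 400 to 700 bp and 5.43 at 700 to 1200 bp, with -7.91 at 200 to 400 bp and -0.26 at 1200 to 2000 bp. With the replicate block, the difference in peak number was -0.57 (log2) and an exact p cannot fall under 0.5. Replicate 1 and 2 of the marks deviated in opposite ways over 776 bins of 1 Mb (r = -0.22), and the crossed pairing, added after seeing the data, gave 0 calls as did the pairing by number. The limits of these data are the single input, the different antibody of each mark and the libraries that count as 1 sample per mark.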
